A study of Arabidopsis thaliana with 6 samples.

Results

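The transcripts described here are those of genes that lie on the mitochondrial genome of Arabidopsis thaliana. A probe set of the Affymetrix ATH1 array, a 3′ expression array, was taken where the array's probe table gave it 1 gene and the TAIR10.1 gene table placed that gene on the mitochondrial chromosome. There were 23 such probe sets for 16 genes, and each gene was represented by its probe set with the highest mean over all arrays. All 16 were matched by symbol or synonym and 0 by gene identifier. They were 16 of the 13354 genes that the array names by single-gene probe sets, and 16 of the 32 protein-coding symbols on that chromosome. Of the 16 genes, 10 encode respiratory complex subunits, 4 act in cytochrome c maturation and 2, matR and mttB, have other roles. The members included 0 ribosomal genes and 0 genes named as open reading frames, so neither class could be compared through members. The gene that the probe table calls orfX is mttB in the gene table. The probe sets of 5 members, nad5, nad6, ccmFC, matR and mttB, carry the array maker's suffix for sets whose probes may match more than 1 transcript, although the probe table gives each 1 gene, so signal from another locus cannot be told apart there.

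The samples were root tips of about 0.5 mm cut by hand from primary roots 4 days after germination, with about 200 tips pooled per replicate. The mutant plants were quadruple mutants that combine the alleles athb8-11 and cna-2 with phb-13 and phv-6, in 4 transcription factor genes of the class III homeodomain-leucine zipper family, and the wild type was Col er-2. By its name the wild type carries the er-2 allele, and the mutant's labels do not list that allele. Each genotype had 3 arrays, and nothing was applied to the plants.

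Plant mitochondria keep a small genome that encodes part of the respiratory chain, part of the mitochondrial ribosome and the machinery that attaches heme to c-type cytochromes. All other subunits are encoded in the nucleus and imported. Mitochondrial transcripts are made by phage-type RNA polymerases that are themselves nuclear-encoded, and they are spliced and edited by nuclear-encoded factors. In dividing root tip cells mitochondria supply ATP for growth. Poly(A) tails on plant mitochondrial transcripts are as a rule short-lived and mark the RNA for decay, while the kit named in the labels primes from such tails. A large copy of the mitochondrial genome also lies in chromosome 2 of Arabidopsis, so that a probe set may match both genomes.

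Array medians lay between 5.56 and 5.59 in log2 signal, and the arrays correlated with each other at 0.989 to 0.996 across probe sets, with 0 identical pairs. Replicate 1 of both genotypes deviated from its group mean in the same direction (correlation 0.504 across probe sets), where the other same-numbered arrays were at 0.065 and 0.176. PHV, a mutated gene, had log2 signals of 4.64, 4.93 and 4.66 in the mutant, against 5.49, 5.80 and 5.68 in Col er-2. Its difference of -0.92 had a limma adjusted p of 0.0639. PHV therefore did not pass the adjusted threshold that is applied to the mitochondrial genes below, although its arrays did not overlap between genotypes. No other mutated gene could be named on the array. Of the markers of root tip tissues, AT1G65570 of the root cap lay between 7.95 and 9.19, and CR4, also of the root cap, between 5.49 and 5.68, close to the array medians. Of the ground tissue, AT1G62500 lay between 7.37 and 8.30, JKD between 6.04 and 6.42 and SLY2 between 4.88 and 5.65. Of the stem cell niche, BBM lay between 5.98 and 6.71, above every array median, and AGL42 and CLE40 lay below every array median, as did EXPA7 and EXPA18 of root hairs, with signals between 3.73 and 4.82 for these 4. BBM and AT1G62500 had higher signals on all mutant arrays than on all Col er-2 arrays. Their differences were 0.42 and 0.57 (limma adjusted p = 0.463 and 0.369). EXPA7 and RCA, the latter of green tissue, had lower signals on all mutant arrays than on all Col er-2 arrays. Their differences were -0.17 and -0.33 (limma adjusted p = 0.716 and 0.741). Of all probe sets, 13.1% did not overlap between genotypes. The part of these markers in the values below was not tested. RCA and LHCB4.1 of green tissue had their highest signals, 5.67 and 6.06, on Col er-2 replicate 3.

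No mitochondrial gene differed between the mutant and Col er-2 beyond the spread of the arrays. With limma's test and Benjamini-Hochberg adjustment over all probe sets, 0 of 16 members had an adjusted p under 0.05, where 0.0264% of the 22746 probe sets tested did. Their adjusted p lay between 0.811 and 0.993. At an unadjusted p under 0.05 there were 0 of 16 members, against 7.47% of all probe sets. The signals of the 2 genotypes did not overlap in 0 of 16 members, against 13.1% of all probe sets. The mean was higher in the mutant for 11 members and lower for 5, and of all probe sets 52.6% were higher. The median log2 difference, mutant minus Col er-2, was 0.057 over the members and 0.008 over all probe sets. The differences ran from -0.14 to 0.17. In bulk tissue, fewer cells or organelles and less RNA in each cannot be told apart.

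The intervals give the size of change that the arrays could have missed. The 95% confidence intervals of the 16 differences together spanned -0.45 to 0.53 on the log2 scale, or 0.73-fold to 1.44-fold in signal, so that each lay within 1.5-fold in either direction, a bound chosen after the values were seen. The same held for 92.3% of all probe sets. The median standard error was 0.13 for the members and 0.10 for all probe sets. These intervals are those of the signals. Of the 16 members, 11 lay below the median of their array on every array and have no detection call, and the signal of dim probe sets understates changes of the transcript. The 5 members above the array median on every array were nad4, cox1, ccmFC, ccmFN1 and mttB.

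**Figure D1:**
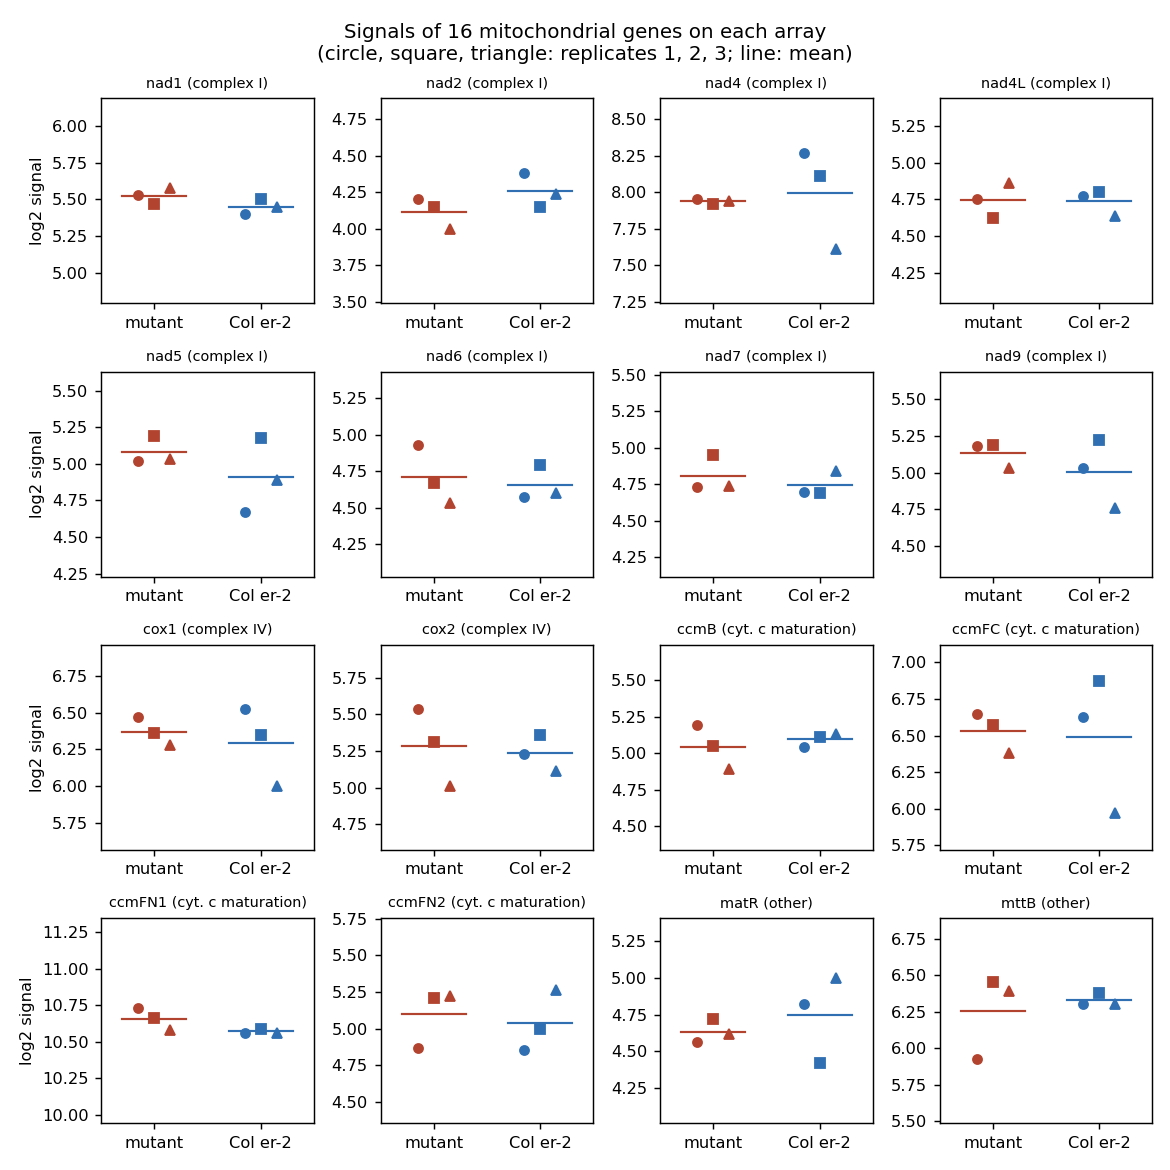
Log2 signal of the 16 mitochondrial genes on each array, with the quadruple mutant on the left and Col er-2 on the right of each panel. Points are single arrays, marked by replicate, and lines are means of 3 arrays; each axis spans the same range of log2 units around its gene, and the genotypes overlap in every panel.

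The complex I genes encode membrane and peripheral arm subunits of NADH dehydrogenase, the entry point of electrons from NADH. All 8 named here were nad genes, with 6 higher and 2 lower in mean signal in the mutant and a median difference of 0.062. The gene with the smallest p was nad2, a membrane arm subunit, at log2 signals of 4.20, 4.15 and 4.00 in the mutant, against 4.38, 4.15 and 4.24 in Col er-2. Col er-2 replicate 1 was the highest array and mutant replicate 3 the lowest, and the genotypes overlapped. The mutant mean of 4.12 ± 0.11 and the Col er-2 mean of 4.26 ± 0.11 (SD, n = 3 each) differed by -0.14 (95% confidence interval -0.36 to 0.08, limma adjusted p = 0.811). Without Col er-2 replicate 1 the difference was -0.078.

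nad5, another membrane arm subunit, had the largest positive difference of all members. Its signals were 5.02, 5.19 and 5.03 in the mutant, against 4.67, 5.18 and 4.89 in Col er-2. Col er-2 replicate 1 was the lowest array, and Col er-2 replicate 2 lay within the mutant range. The difference of 0.17 had an interval of -0.14 to 0.47 and a limma adjusted p of 0.841. Without Col er-2 replicate 1 it was 0.044, and the second nad5 probe set, described below, gave the opposite sign.

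nad9, a subunit of the peripheral arm, had signals of 5.18, 5.19 and 5.03 in the mutant, against 5.03, 5.22 and 4.76 in Col er-2. Both the highest and the lowest array were of Col er-2. Its difference was 0.13 (95% confidence interval -0.15 to 0.41) and it was 0.015 with Col er-2 replicate 3 left out. nad7, also of the peripheral arm, was at 4.73, 4.95 and 4.74 in the mutant, against 4.70, 4.69 and 4.84 in Col er-2, and its difference was 0.07 (-0.15 to 0.28).

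nad1 lies in the membrane arm and its messenger is joined by trans-splicing from separate transcripts. Its brightest probe set had signals of 5.53, 5.47 and 5.58 in the mutant, against 5.40, 5.50 and 5.45 in Col er-2. These 6 values spanned 0.18 log2 units, and the difference of 0.08 had an interval of -0.10 to 0.26. nad4, a membrane arm subunit, was the brightest respiratory member by signal, at 7.95, 7.92 and 7.94 in the mutant, against 8.27, 8.11 and 7.61 in Col er-2. The mutant arrays lay within the range of the Col er-2 arrays, with an SD of 0.02 in the mutant and 0.34 in Col er-2. Its difference was -0.07 (-0.43 to 0.29). The remaining complex I members, nad4L and nad6, both of the membrane arm, differed by 0.01 (-0.20 to 0.22) and 0.06 (-0.22 to 0.33).

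Some of these genes were measured by more than 1 probe set, which gives a check within the same arrays. The 7 nad1 probe sets had mean signals of 3.98 to 5.49 over all arrays, and their differences ran from -0.12 to 0.08. Of the 7, 4 were higher and 3 lower in the mutant, and the lowest limma adjusted p among them was 0.882. Another 2 nad1 probe sets, each shared with a chromosome 2 locus, differed by 0.01 and 0.14, the second above the range of the 7. The 2 nad5 probe sets differed by 0.17 and -0.09. With the probe sets of a gene averaged, the nad1 difference was -0.003.

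The complex IV genes cox1 and cox2 encode catalytic core subunits of cytochrome c oxidase, which passes electrons to oxygen. cox1 averaged 6.37 ± 0.09 in the mutant and 6.30 ± 0.27 in Col er-2 (SD, n = 3 each), a difference of 0.07 (95% confidence interval -0.24 to 0.39). cox2 averaged 5.29 ± 0.27 in the mutant and 5.24 ± 0.12 in Col er-2, a difference of 0.05 (-0.26 to 0.37). Both turned negative when Col er-2 replicate 3 was left out, at -0.073 for cox1 and -0.007 for cox2.

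The cytochrome c maturation genes, ccmB, ccmFC, ccmFN1 and ccmFN2, encode parts of the pathway that exports and attaches heme. ccmFN1 was the brightest probe set of all members, and it varied little between arrays. Its signals were 10.73, 10.66 and 10.58 in the mutant, against 10.56, 10.59 and 10.56 in Col er-2. The lowest mutant array lay just below the highest Col er-2 array. The difference of 0.09 had an interval of -0.09 to 0.27 and a limma adjusted p of 0.855. In signal this interval is 0.94-fold to 1.2-fold.

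ccmFN2, the other part of the split ccmFN gene, was at 4.87, 5.21 and 5.22 in the mutant, against 4.85, 5.0 and 5.26 in Col er-2. Replicate 1 was the lowest array in both genotypes. The difference was 0.06 (95% confidence interval -0.25 to 0.38). ccmB, a subunit of the heme export complex, was at 5.19, 5.05 and 4.89 in the mutant, against 5.04, 5.11 and 5.13 in Col er-2, and its difference of -0.06 had an interval of -0.28 to 0.16. ccmFC had the widest interval of all members, -0.44 to 0.53 around 0.05, and is singled out after its values were seen. Its signals were 6.65, 6.57 and 6.38 in the mutant, against 6.63, 6.87 and 5.97 in Col er-2. Without Col er-2 replicate 3, the lowest array, the difference was -0.216.

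The other members showed the same overlap. matR encodes a maturase for group II introns and lies within an intron of nad1. It was at 4.56, 4.72 and 4.62 in the mutant, against 4.82, 4.42 and 5.0 in Col er-2. All mutant arrays lay within the Col er-2 range, and the difference was -0.12 (95% confidence interval -0.45 to 0.22). mttB, which resembles the TatC protein of bacterial protein translocation, was at 5.93, 6.45 and 6.39 in the mutant, against 6.30, 6.38 and 6.30 in Col er-2. Mutant replicate 1 was the lowest array, and without it the difference of -0.07 (-0.38 to 0.24) was 0.091.

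By class, the 10 respiratory members had 8 higher and 2 lower means in the mutant and a median difference of 0.062. The 6 maturation and other members had 3 higher and 3 lower and a median of -0.005. Whether these classes differ was not tested. Without Col er-2 replicate 3 the median of all members was 0.002, with 8 of 16 higher, and that of the respiratory members 0.004. With replicate 1 of both genotypes left out, the median over the members was 0.055, with 11 of 16 higher.

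Ribosomal genes, cob, cox3, atp1 and atp9 were covered only by probe sets to which the probe table gives several genes. There were 12 such probe sets, the 2 further ones of nad1 included, 11 of them shared with a nuclear locus of chromosome 2 and 1 shared by the mitochondrial genes rps3 and rpl16, so the genome of origin of most of these signals cannot be told apart. With limma, 0 of 12 had an adjusted p under 0.05 and 0 an unadjusted p under 0.05. The 6 ribosomal probe sets, for large and small subunit proteins of the mitochondrial ribosome, had 4 higher and 2 lower means in the mutant and a median difference of 0.029. The rps3 and rpl16 probe set had signals of 9.62, 9.30 and 9.03 in the mutant, against 9.65, 9.56 and 9.17 in Col er-2. In both genotypes replicate 1 was the highest and replicate 3 the lowest array, and the difference was -0.14 (95% confidence interval -0.54 to 0.26).

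Of the shared respiratory probe sets, that of cob, the cytochrome b of complex III, averaged 7.35 ± 0.06 in the mutant and 7.18 ± 0.42 in Col er-2 (SD, n = 3 each), a difference of 0.17 (-0.26 to 0.59). Those of atp1 and atp9, the alpha and ring subunits of ATP synthase, differed by -0.11 and -0.18, and that of cox3 by -0.08. The interval of cob had the highest upper bound of all mitochondrial probe sets, at 1.51-fold.

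**Figure D2:**
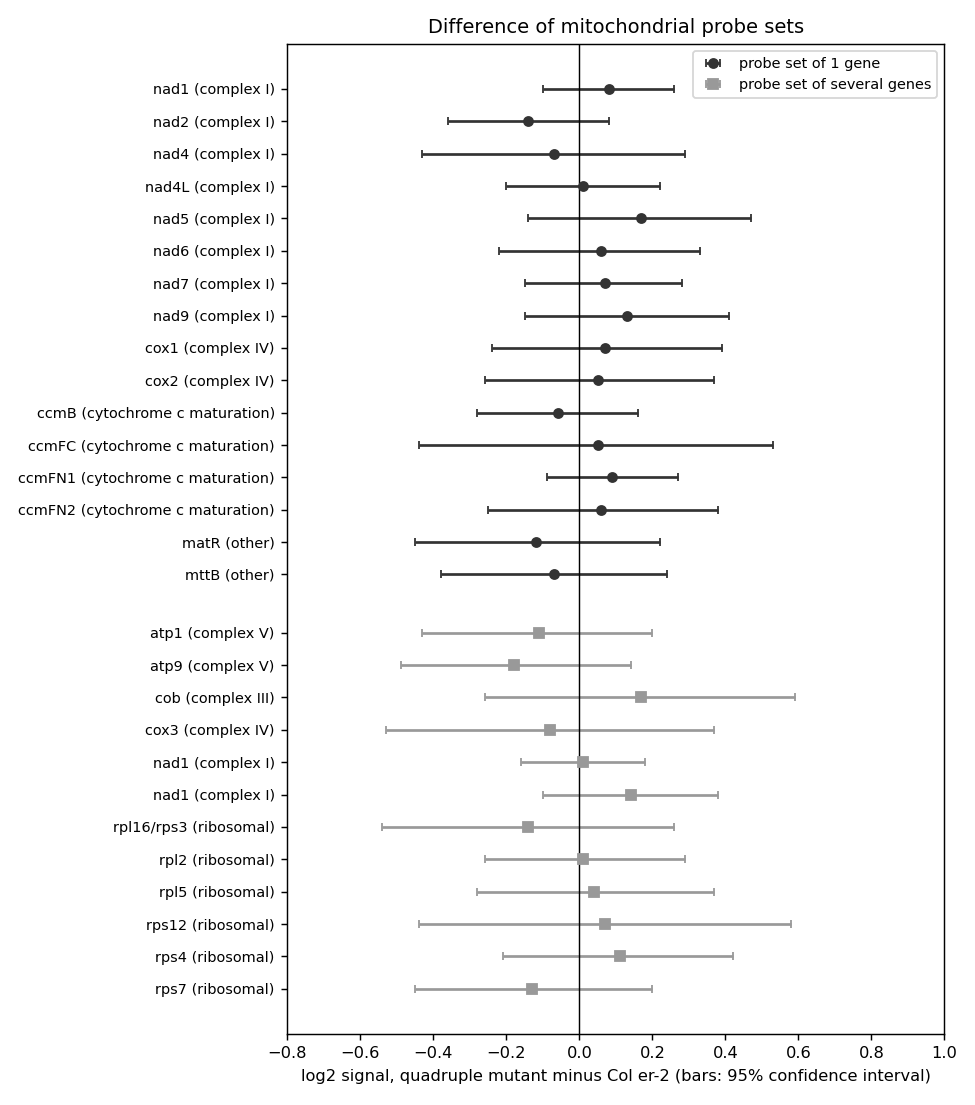
Difference in log2 signal, quadruple mutant minus Col er-2, for the 16 members (black circles) and the 12 probe sets of several genes (grey squares). Bars are 95% confidence intervals from the limma fit with 3 arrays per genotype; every interval includes 0.

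The members were also read array by array. As mean deviation from each gene's mean over the 6 arrays, the 16 members lay at 0.030, 0.047 and -0.041 in the mutant, against 0.000, 0.049 and -0.085 in Col er-2. The 10 respiratory members were lowest on Col er-2 replicate 3, at -0.134, and the 12 shared probe sets were lowest there too, at -0.211. The 6 maturation and other members were at -0.004 on that array.

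Plastid-encoded genes, the other organelle transcripts on the array, were described beside these. The 69 plastid genes with a single-gene probe set lay at -0.178 on Col er-2 replicate 3, and 38 of 69, or 55.1%, had their lowest signal there. That array was the lowest for 15.7% of all probe sets and for 4 of the 16 members, or 25.0%. Col er-2 replicate 1 and mutant replicate 3 were each the lowest for 4 members as well. Of the plastid genes 0 of 69 passed limma's adjusted threshold, and 6 had an unadjusted p under 0.05, where 7.47% of all probe sets did. Their median difference was 0.085, and 0.042 without Col er-2 replicate 3. Whether the mitochondrial and plastid genes differ was not tested. RCA and LHCB4.1, nuclear genes of green tissue, were highest on Col er-2 replicate 3, and their part in the plastid values was not tested.

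**Figure D3:**
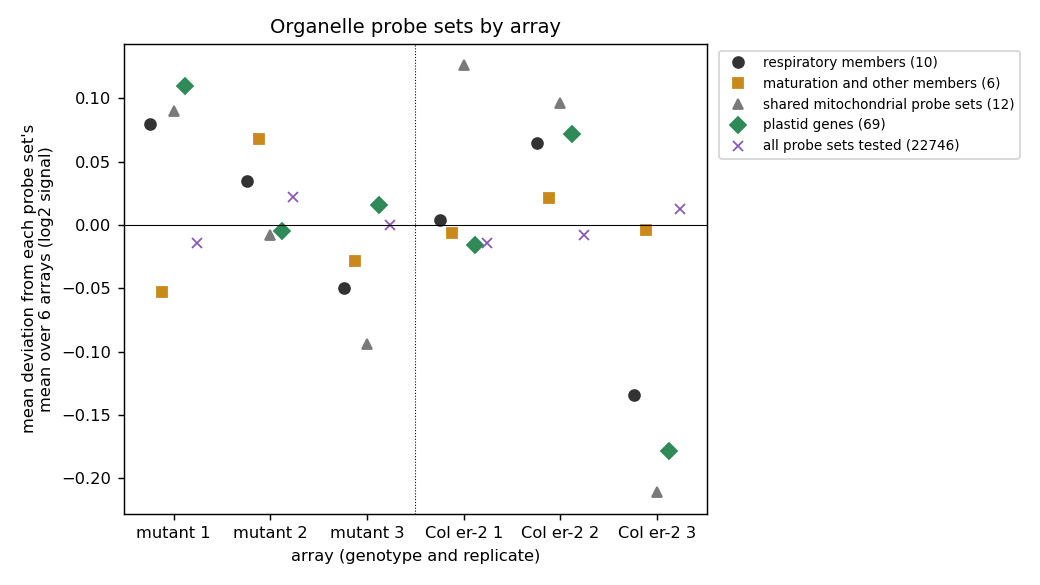
Mean deviation of each group of probe sets from its own mean over 6 arrays, in log2 signal, by array. Respiratory members, shared mitochondrial probe sets and plastid genes had their lowest value on Col er-2 replicate 3 (-0.134, -0.211 and -0.178), where all probe sets together lay at 0.013.

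Nuclear genes that work with the mitochondrial ones were read from 8 lists of 102 loci, of which 39 could be named on the array. With limma, 0 of 39 passed the adjusted threshold and 2 had an unadjusted p under 0.05, where 7.47% of all probe sets did. The signals of the 2 genotypes did not overlap in 6 of 39, against 13.1% of all probe sets. These were SDH2-1, lower in the mutant, and GLDH, AT5G61310, NDB1, NDC1 and AT5G14580, higher in the mutant. Among the partner subunits of the respiratory chain, complex I had 1 higher and 3 lower means of 4 named, and its members with the smallest p were GLDH, a galactonolactone dehydrogenase needed for complex I assembly, at 0.11, and AT4G02580, a peripheral arm subunit, at -0.09. Complex II, which has no member here among the mitochondrial genes, had 0 higher and 4 lower. Its SDH2-1, an iron-sulfur subunit of succinate dehydrogenase, was at 10.55, 10.48 and 10.52 in the mutant, against 10.75, 10.72 and 10.57 in Col er-2, with all mutant arrays below all Col er-2 arrays. The difference of -0.17 had a limma adjusted p of 0.735. The next, SDH2-2, differed by -0.08.

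Complex III and cytochrome c had 5 higher and 3 lower of 8, led by AT5G40810, a cytochrome c1 gene, at 0.13, and AT1G51980, a processing peptidase alpha subunit, at 0.10. In complex IV, 2 were higher and 5 lower of 7. AT5G61310, a COX5C-type subunit, was at 10.66, 10.75 and 10.94 in the mutant, against 10.54, 10.65 and 10.50 in Col er-2. Its arrays did not overlap, and the difference of 0.22 had a limma adjusted p of 0.665, while AT4G37830, of the COX6A type, differed by -0.10. Complex V had 4 higher and 1 lower of 5, with differences of -0.06 to 0.05, the narrowest span of the lists of 4 or more. The 2 with the smallest p were AT2G19680, a g subunit, at -0.06, and AT4G29480, also a g subunit, at 0.05.

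Nuclear genes of mitochondrial gene expression had higher means in the mutant in 5 of 5 named, with none past the adjusted threshold, where 52.6% of all probe sets were higher. Col er-2 replicate 1 was the lowest array for 5 of the 5, against 25.2% of all probe sets, and without it 3 of 5 were higher. Their mean deviation was 0.051, 0.089 and 0.067 on the mutant arrays, against -0.247, -0.051 and 0.091 on the Col er-2 arrays. AT5G46920, which encodes the intron maturase nMAT2, was at 8.06, 8.08 and 7.91 in the mutant, against 7.52, 7.72 and 7.93 in Col er-2. Col er-2 replicate 3 lay within the mutant range. Its difference of 0.29 (95% confidence interval 0.03 to 0.56) had a limma adjusted p of 0.621. OTP43, a splicing factor for nad1, differed by 0.04. AT5G14580, the mitochondrial polynucleotide phosphorylase that degrades RNA, was at 8.19, 8.18 and 8.14 in the mutant, against 7.79, 8.0 and 8.11 in Col er-2, a difference of 0.20 (adjusted p = 0.727). AT5G15700, the RNA polymerase RPOTmp, differed by 0.14 (-0.18 to 0.46). OSB1, a DNA-binding protein that stabilises the mitochondrial genome, differed by 0.02. Only 5 of 33 loci on these 2 lists could be named, so the counts describe few genes.

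The list of alternative respiratory enzymes and of genes induced by mitochondrial stress had 5 higher and 1 lower of 6 named. Only these 6 of its 16 loci could be named, all of them alternative NAD(P)H dehydrogenases except AT2G21640. The alternative oxidases on the list were therefore not read. NDC1 and NDB1, both alternative NAD(P)H dehydrogenases, had the smallest p, with differences of 0.19 and 0.15 (limma adjusted p = 0.754 and 0.761). NDB4, of the same family, and AT2G21640, a gene induced by oxidative stress, are singled out after their values were seen, because they spread most. AT2G21640 was at 9.01, 6.77 and 6.88 in the mutant, against 8.08, 7.12 and 6.70 in Col er-2, and NDB4 at 7.70, 6.13 and 5.86 in the mutant, against 6.17, 5.74 and 5.56 in Col er-2. Replicate 1 was the highest array of each genotype for both genes. Their differences of 0.25 (-1.11 to 1.62) and 0.74 (-0.24 to 1.73) had limma adjusted p of 0.961 and 0.770. On the same replicate 1 arrays, the mean deviation of the mitochondrial members was 0.030 in the mutant and 0.000 in Col er-2.

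**Figure D4:**
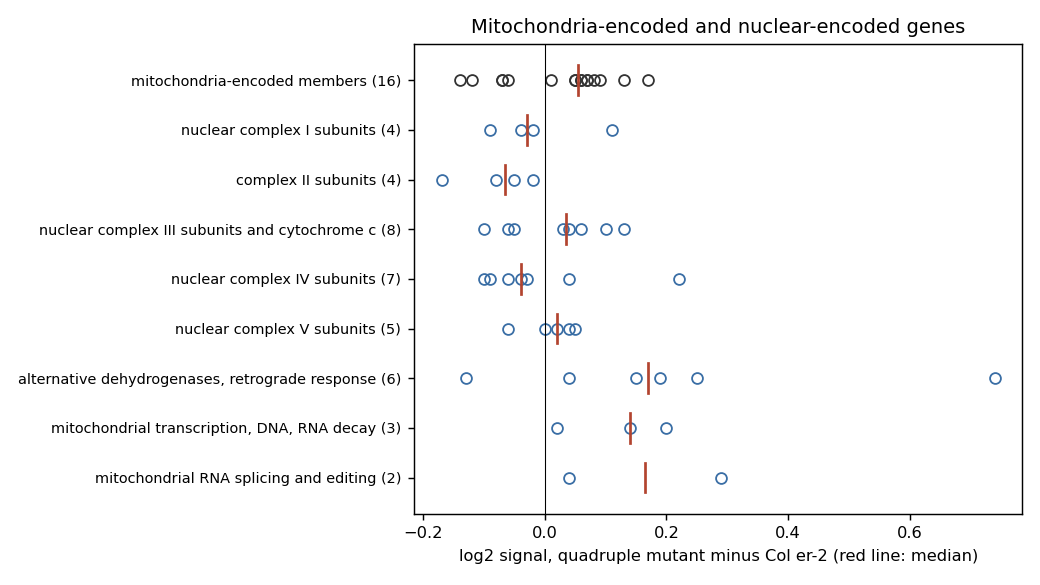
Difference in log2 signal, quadruple mutant minus Col er-2, of the 16 mitochondrial genes and of the nuclear genes on 8 lists. Each circle is 1 gene and the red line is the median; of the mitochondrial genes all lie between -0.14 and 0.17, and the gene furthest out, NDB4, is at 0.74.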

How the data were processed

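The deposited values are log2 signals of 22810 probe sets on each of 6 arrays. Per the submitters' processing notes the tools were RMA, limma and Affymetrix Expression Console, with no role or version given. Values normalized by RMA are background corrected, brought to nearly 1 distribution across arrays and summarised over probes, which hides a shift shared by most genes and compresses differences of dim probe sets. The build and scan batches are not given in the sources used here. Depth is not defined for arrays, and 3 arrays per genotype limit the precision.

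Here 64 control probe sets were left out. The other 22746 were fitted as mutant minus Col er-2 with limma 3.58.1 in R 4.3.3 (lmFit, eBayes), with no replicate block, and Benjamini-Hochberg adjustment ran over all of them. The labels do not say whether replicates came from separate sowings, so p-values measure the spread between these samples. The probe table names 1 gene for 13513 probe sets and several for 503, and it does not list 8730, so further mitochondrial probe sets may be among those not named here. The table's gene identifiers for mitochondrial genes are not in the TAIR10.1 gene table, and symbols and synonyms were matched instead. No coordinates or sequences are given.

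Members, classes, markers and nuclear lists were chosen with earlier results of these data known. Named with every array were, in each class, the 5 members with the smallest p and those with the highest or lowest level or difference, and of each nuclear list the 2 with the smallest p were named, mostly by their difference alone. The fit was tested on simulated arrays with known changes. Those changes were larger than the difference of any member, so the test does not bear on changes of the members' size. Alternatives were each array left out, omission of replicate 1 of both genotypes, a block for the replicate number, probe sets under the 35th percentile of mean signal left out, eBayes with trend and robust, median centring, quantile normalization repeated, array weights, a gene's probe sets averaged, and an adjusted p under 0.1.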

Additional observations from a re-analysis of the deposited data

How the results depend on the processing

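In every alternative run, 0 of 16 members were called, and the lowest adjusted p of a member was 0.529. Of 223 recomputed member differences 200 kept their sign and 23 turned it, none of them called. The 200 include settings that cannot change a difference: the replicate block, trend and robust, and dim probe sets left out. Averaged probe sets could change only nad1 and nad5. Of the 16 members, 12 turned sign in at least 1 alternative. Over all probe sets 6 were called, and the count was 109 with the replicate block, 27 with trend and robust, 22 with array weights, 11 with quantile normalization repeated, 19 at an adjusted p under 0.1 and 1 to 8 with 1 array left out (1 without each mutant array, 3 without Col er-2 replicate 2); the cause was not tested. The labels do not state that same-numbered arrays are pairs. Same-numbered deviations correlated at 0.504, 0.065 and 0.176. Those of unlike numbers ran from -0.425 (mutant replicate 1 with Col er-2 replicate 3) to 0.317 (mutant replicate 2 with Col er-2 replicate 3). Whether the arrays form pairs was not tested. With the replicate block 0 members were called. Each replicate number has 1 array of each genotype, so a block cannot change the differences or their median of 0.057.

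Signs turned with replicate 1 of both genotypes left out for cox2 (-0.074), mttB (0.080), nad4 (0.065) and nad6 (-0.094), with array weights for ccmFC (-0.145), cox2 (-0.081) and nad6 (-0.045), with median centring for nad4L (-0.016) and with averaged probe sets for nad1 (-0.003). With 1 array left out, ranges that kept their sign were 0.051 to 0.128 for ccmFN1, 0.051 to 0.105 for nad1, -0.191 to -0.078 for nad2, 0.044 to 0.299 for nad5 and 0.015 to 0.24 for nad9. Ranges that crossed 0 were -0.13 to 0.021 for ccmB, -0.216 to 0.236 for ccmFC, -0.032 to 0.177 for ccmFN2, -0.073 to 0.192 for cox1, -0.072 to 0.193 for cox2, -0.281 to 0.011 for matR, -0.167 to 0.091 for mttB, -0.26 to 0.071 for nad4, -0.049 to 0.070 for nad4L, -0.051 to 0.149 for nad6 and -0.006 to 0.115 for nad7. The members' median ran from 0.002 to 0.075, and that of maturation and other members from -0.056 to 0.019. With replicate 1 of both genotypes left out, medians were 0.052 for maturation and other members, 0.012 for nuclear complex I and 0.090 for complex V. With 1 array left out the complex V median ran from -0.009 to 0.074, and that of mitochondrial transcription, DNA maintenance and RNA decay from 0.016 to 0.274. In an alternative chosen after seeing the data, the count of nuclear gene expression genes higher in the mutant ran from 3 to 5 of 5 with 1 array left out. With dim probe sets left out, 15 of 16 members were kept, and RNA splicing and editing kept 1 gene, at 0.291. Low signal limits the 11 members below the array medians.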

Other observations

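Nuclear loci of chromosome 2 that lie between those sharing probe sets with mitochondrial genes were read as well, a choice made after values were seen. There were 23 such loci with a probe set to which the probe table gives that locus alone, from AT2G07673 to AT2G07732. Most of these probe sets carry the array maker's suffix for sets whose probes may match more than 1 transcript. Signal from another locus, the mitochondrial copy included, cannot be told apart there. With limma, 0 of 23 had an adjusted p under 0.05 and 2 an unadjusted p under 0.05, where 7.47% of all probe sets did, a share that the 2 loci do not clearly exceed. Of the 23, 10 were higher and 13 lower in mean signal in the mutant, with a median difference of -0.026.

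The 2 were AT2G07730 and AT2G07721. AT2G07730 was at 4.73, 4.81 and 4.83 in the mutant, against 4.44, 4.45 and 4.61 in Col er-2, with all mutant arrays above all Col er-2 arrays and a difference of 0.29 (95% confidence interval 0.10 to 0.48, limma adjusted p = 0.456). AT2G07721 was at 6.18, 6.05 and 6.29 in the mutant, against 5.70, 6.09 and 5.61 in Col er-2, where Col er-2 replicate 2 lay within the mutant range, and differed by 0.37 (0.06 to 0.69, limma adjusted p = 0.576). Whether these signals come from the nuclear or the mitochondrial copy was not tested. Of the 23 loci, 17 lay below the array median on every array.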
